A study of Mus musculus with 2 samples.

Results

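The genes described here are Tnf, its 2 receptor genes Tnfrsf1a and Tnfrsf1b, the NF-kB feedback genes Nfkbia, Tnfaip3 and Nfkbiz, and the TNF-inducible gene Tnfaip6. They were chosen by name, as 7 of the 35208 gene rows of a single-cell RNA matrix, and all 7 had reads. The cells came from ear skin with IgE-dependent chronic allergic skin inflammation (IgE-CAI). BALB/c mice that were wild-type (WT) or Ccr2-/- were given 300 µg of IgE specific for TNP, a hapten, intravenously, and the next day 10 µg of ovalbumin carrying TNP in the right ear skin. Cells of 4 groups, taken 3 and 5 days after challenge from each genotype (WT day 3, WT day 5, Ccr2-/- day 3, Ccr2-/- day 5), were stained with 1 hashtag antibody each and mixed. All groups were thus sensitized and challenged, the Ccr2-/- mice lack the chemokine receptor in every cell, and the number of mice in a pool is not given in the sources used here. No pool had a replicate, so no p-value is given, and every difference is one between single pools.

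TNF is a cytokine made as a membrane protein and released by the protease ADAM17. It binds TNFR1 (Tnfrsf1a), found on most cells, and TNFR2 (Tnfrsf1b), found mainly on leukocytes and endothelial cells. Both receptors can activate NF-kB, a family of transcription factors that IkB proteins hold in the cytoplasm. Among the first genes that NF-kB switches on are those that turn it off again: Nfkbia encodes IkB alpha, and Tnfaip3 encodes A20, an enzyme that removes and adds ubiquitin on the signalling complex. In inflamed skin, mast cells, macrophages and neutrophils are known sources of TNF.

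The matrix held 8953 barcodes beside 10000 cells loaded, and 7113 were kept after hashtag assignment and a limit on mitochondrial reads. Of these 1537 were of WT day 3, 1041 of WT day 5, 2186 of Ccr2-/- day 3 and 2349 of Ccr2-/- day 5, with median depths of 39768, 48232, 34534.5 and 18660.0 reads per cell. Barcodes with several hashtags, 576 in all, were removed, and doublets within a pool were not. Levels are CPM, the reads of a gene per 1000000 of the summed reads of a cell group in a pool, with exact Poisson 95% intervals. These intervals treat each read as a separate count. The files hold reads and not molecules, so the intervals can be too narrow even for counting error. They do not cover the spread between cells or mice. Of 23 clusters, 5 stayed unnamed and are called by number and leading genes, and the others were named from marker genes and carry the ending -like. A cell kept its cluster's name if its own markers led as well, which left 4455 cells, 404 of them within 0.25 of another list's score. The unnamed clusters held 1745 cells. The targeted gene Ccr2 had 926 and 634 CPM in the monocyte-macrophage-like (Mo-Mac-like) cells of the WT pools, and 37.2 and 26.3 CPM in those of the Ccr2-/- pools. Groups with at least 20 cells in a pool are described, which were 16 groups, 11 of them named.

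The members lie on 7 chromosomes of the mouse genome (build GRCm38.p6, RefSeq positions), Tnf at chr17:35199367-35202007, Tnfrsf1a at chr6:125349723-125362483, Tnfrsf1b at chr4:145212368-145246870, Nfkbia at chr12:55489409-55492647, Tnfaip3 at chr10:19000910-19015410, Nfkbiz at chr16:55811375-55838954 and Tnfaip6 at chr2:52038113-52056681. RefSeq promoter windows, from 250 bases before to 50 bases after a start site, were at hand for 6 of the 7 members (7 windows, since Tnfaip3 has 2), and Nfkbiz had none. The NF-kB consensus of 10 bases was searched on both strands. It was found in 2 of the 7 member windows, those of Nfkbia and of the upstream Tnfaip3 start, and in 4.51% of all 32851 windows. Tnfrsf1b had no match in its window, though its levels over the cell groups went with those of Tnf and Tnfaip3 (Pearson r of 0.69 and 0.78). A match was thus not a mark of the genes whose levels went together. The windows of Tnf and of the 2 feedback genes with a match are shown, each 5′ to 3′ on the strand of the gene, with the matches in capitals.
Tnf (chr17:35201958-35202257, minus strand): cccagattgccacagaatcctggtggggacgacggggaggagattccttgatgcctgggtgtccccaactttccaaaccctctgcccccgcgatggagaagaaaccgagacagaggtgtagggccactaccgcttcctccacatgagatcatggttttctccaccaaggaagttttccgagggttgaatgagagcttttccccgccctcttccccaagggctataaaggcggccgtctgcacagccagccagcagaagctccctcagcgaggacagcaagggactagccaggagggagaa
Nfkbia (chr12:55492598-55492897, minus strand): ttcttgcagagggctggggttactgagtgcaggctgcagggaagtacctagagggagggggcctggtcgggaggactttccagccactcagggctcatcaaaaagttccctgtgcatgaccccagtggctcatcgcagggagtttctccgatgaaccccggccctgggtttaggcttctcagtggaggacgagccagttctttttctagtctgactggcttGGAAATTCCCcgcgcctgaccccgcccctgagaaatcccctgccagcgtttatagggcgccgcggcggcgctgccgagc
Tnfaip3 (chr10:19015361-19015660, minus strand): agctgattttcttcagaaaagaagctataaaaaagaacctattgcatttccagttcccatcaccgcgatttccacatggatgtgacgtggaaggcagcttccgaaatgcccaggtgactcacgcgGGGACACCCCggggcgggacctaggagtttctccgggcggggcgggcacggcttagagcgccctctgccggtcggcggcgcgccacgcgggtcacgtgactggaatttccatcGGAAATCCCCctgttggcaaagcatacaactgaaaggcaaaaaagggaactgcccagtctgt

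The match of Nfkbia started 29 bases before the start site, on the reverse strand. The matches of Tnfaip3 started 125 bases before it on the gene's own strand and 12 bases before it on the reverse strand. The Tnf window held no match, which says only that these letters are not in this window. A match is a stretch of letters and was not tested for binding here.

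Tnf was highest in the unnamed cluster 13, whose leading genes were Il1a, Hcar2, Il1rn and Ffar2 and whose best marker list was that of neutrophils. It had 5 markers of that list. It stayed unnamed because it was shallow, at 0.26 of the median depth of its pools, with no marker among its 10 leading genes. The neutrophil-like cluster was as shallow, at 0.26. Named by their own marker score alone, neutrophil-like cells numbered 334 and 659 in the Ccr2-/- pools, against 136 and 351 here. In Ccr2-/- mice the 256 cells of cluster 13 at day 3 had 1052 CPM of Tnf (1014 to 1092) and the 406 at day 5 had 1444 CPM (1408 to 1481). The WT pools held 18 and 4 cells of this cluster, and the 18 cells of WT day 3 had 1181 CPM (1028 to 1351). Neutrophil-like cells had 231 CPM in WT day 3, 376 in Ccr2-/- day 3 and 397 in Ccr2-/- day 5, with a single cell holding 62.9% of the reads in WT day 3. The range of cluster 13 over pools did not overlap that of neutrophil-like cells. S100a8, a marker of neutrophils, had 6944 and 7479 CPM in cluster 13 in the Ccr2-/- pools and 18926 and 21879.8 CPM in neutrophil-like cells.

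Basophil-like cells, the effector cells that start IgE-CAI, followed with 213 CPM in WT day 3, 387 in Ccr2-/- day 3 and 299.6 in Ccr2-/- day 5 for Tnf, a range that overlapped that of neutrophil-like cells. Mast cell-like cells, known to store TNF in their granules, had 125 CPM in Ccr2-/- day 3 and 112 in Ccr2-/- day 5. Cluster 4, led by Retnlg, Alox15 and Ccr3, had 84.1 to 153 CPM and T cell-like cells had 65.5 to 126 CPM, both with ranges that reached those of mast cell-like cells. Mo-Mac-like cells had nearly the same level in all 4 pools, 54.2 CPM in WT day 3, 57.1 in WT day 5, 49.7 in Ccr2-/- day 3 and 56.1 in Ccr2-/- day 5. Dendritic cell-like (DC-like) cells had 8.77 CPM in WT day 3, 12.5 in WT day 5, 57.6 in Ccr2-/- day 3 and 61.6 in Ccr2-/- day 5. NK- or ILC-like cells had 3.35 to 30.96 CPM, a range that overlapped that of DC-like cells. Among the named groups structural cells had the lowest medians, with 1.24 to 1.37 CPM in fibroblast-like, 0 to 1.88 in perichondrial-like, 0.515 to 10.5 in lymphatic endothelial-like and 0 to 13.9 in keratinocyte-like cells. The last 2 ranges overlapped those of NK- or ILC-like and DC-like cells. The unnamed clusters 15 (Rgs5, Esam), 0 (small RNA genes) and 10 (Gpx3, Zbtb20) had 6.15 to 56.2, 3.63 to 50.3 and 0 to 51.6 CPM, with higher medians than these structural groups.

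The share of cells with a Tnf read was taken after thinning each cell to 5000 reads, which left out 527 shallower cells (105 of WT day 3, 38 of WT day 5, 178 of Ccr2-/- day 3 and 206 of Ccr2-/- day 5). In cluster 13, where 64 of 684 cells were too shallow, it was 45.1% (exact Clopper-Pearson 95% interval 38.6 to 51.7) and 55.9% (50.7 to 61.1) in the Ccr2-/- pools at days 3 and 5, and 46.9% and 57.4% without thinning. Basophil-like cells had 29.6%, 34.9% and 38.3% in WT day 3 and the 2 Ccr2-/- pools, and mast cell-like cells 30.9% and 29.03% in the Ccr2-/- pools (33.3%, 41.3% and 43.5%, and 54.4% and 53.1%, without thinning). Mo-Mac-like cells had 12.9%, 19.1%, 14.2% and 13.7% in the 4 pools, and 34.4%, 36.8%, 40.2% and 44% without thinning. Fibroblast-like cells, which should lack Tnf, had 0.8%, 0.5%, 0.887% and 0.473% after thinning and 9.6%, 7.46%, 11.5% and 11.8% without it, so shares near 1% read as background. Before thinning the median depth was 9482 and 9764 reads in cluster 13 and 146612 and 146701 in fibroblast-like cells of the Ccr2-/- pools.

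**Figure D1:**
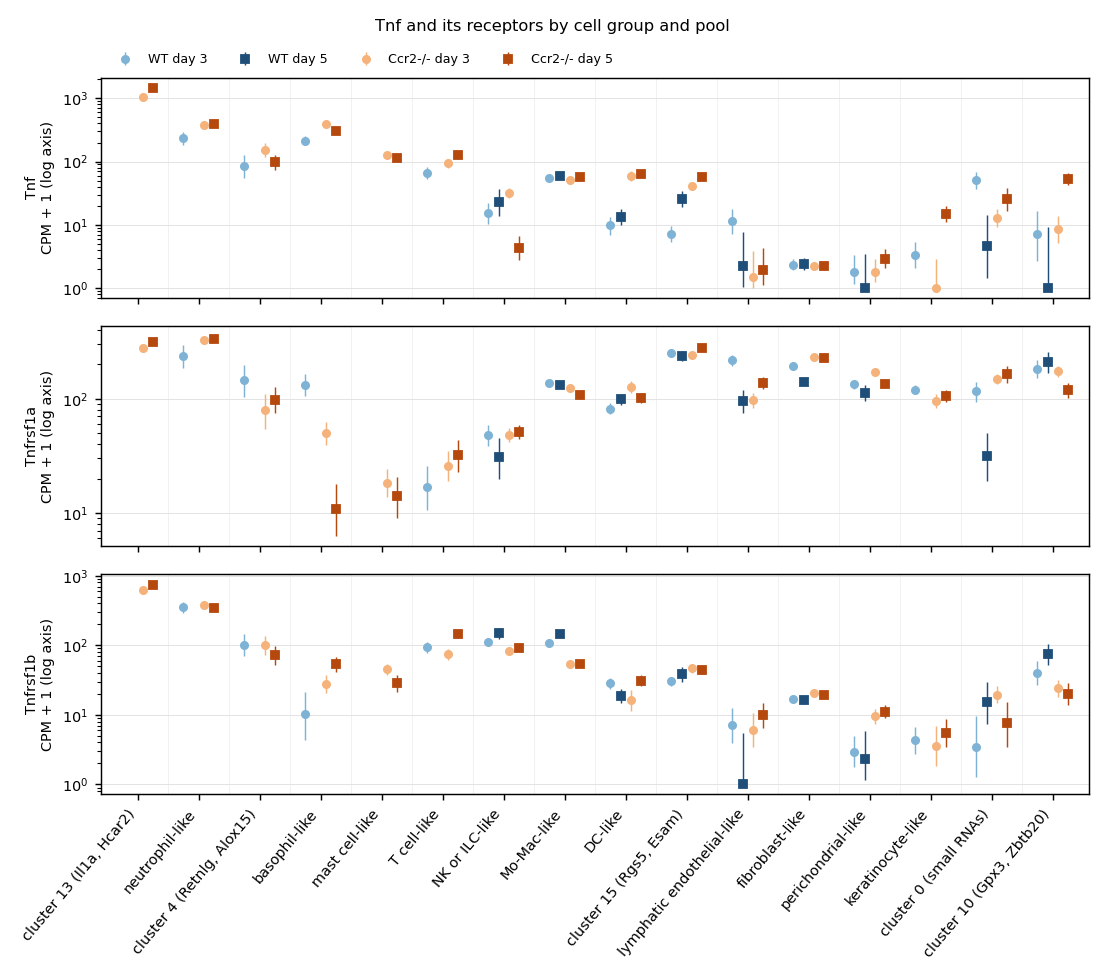
CPM + 1 of Tnf, Tnfrsf1a and Tnfrsf1b on log axes for 16 cell groups, 1 point per pool with its Poisson 95% interval, for groups of at least 20 cells. Tnf and Tnfrsf1b are highest in cluster 13, and Tnfrsf1a lies between 139 and 231 CPM in fibroblast-like cells, where Tnf is near 1 CPM.

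Over all cells Tnf had 27.1 CPM in WT day 3, 29.97 in WT day 5, 35.9 in Ccr2-/- day 3 and 66.7 in Ccr2-/- day 5. The cells behind these reads differed between genotypes. In WT, Mo-Mac-like cells held 52.2% of the Tnf reads at day 3 and 66.1% at day 5, as 25.5% and 37.6% of the cells. In Ccr2-/-, they held 8.23% and 3.78% of the reads, as 5.12% and 3.19% of the cells. Cluster 13 held 48.5% and 62.2% of the Tnf reads in Ccr2-/- at days 3 and 5, as 11.7% and 17.3% of the cells. In WT it held 8.86% and 0.636% of the reads, as 1.17% and 0.384% of the cells. Cells of cluster 13 were shallow, with a median of 9548 reads over all pools, so each weighs less in a share of reads than in a share of cells. Neutrophil-like cells held a further 11.2% and 14.95% in Ccr2-/-, and 2.91% in WT day 3. Within Mo-Mac-like cells the ratio of Tnf levels, Ccr2-/- over WT, was 0.918 on day 3 and 0.983 on day 5. With cluster 13 and neutrophil-like cells as 1 group, a choice made after the data were seen, Tnf had 585 CPM in 50 WT cells of day 3, and 787 and 955 CPM in 392 and 757 Ccr2-/- cells of days 3 and 5. The mix of this group differed between genotypes. Cluster 13 gave 18 of the 50 WT cells, and 256 of the 392 and 406 of the 757 Ccr2-/- cells.

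**Figure D2:**
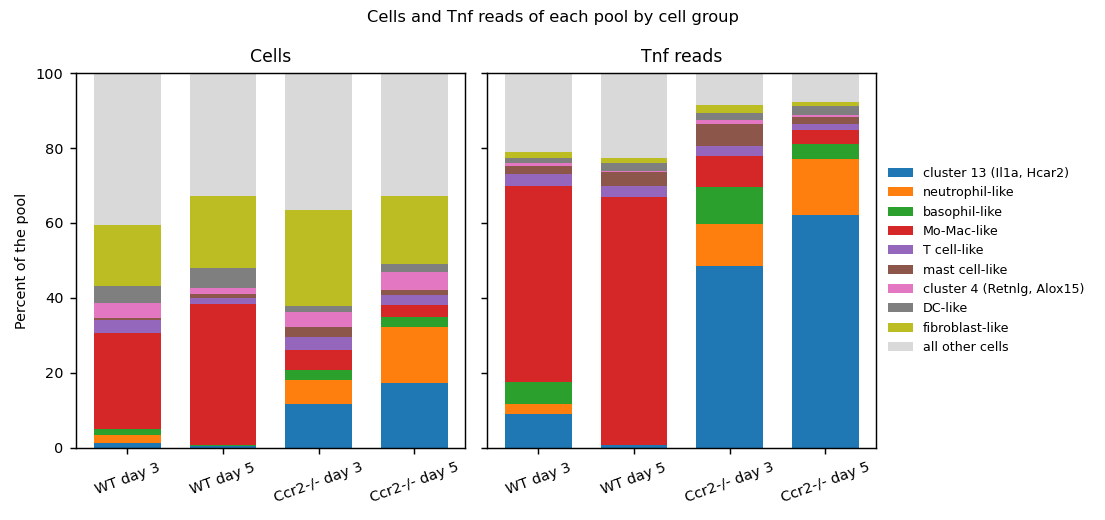
Percent of the cells (left) and of the Tnf reads (right) of each pool that fall in 9 cell groups and in all other cells, as bars that start at 0 and sum to 100. Mo-Mac-like cells hold 52.2% and 66.1% of the Tnf reads in WT, and cluster 13 holds 48.5% and 62.2% in Ccr2-/-.

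The receptor genes were spread differently over the cells. Tnfrsf1a, the receptor with a death domain, had the highest median in neutrophil-like cells, with 234 CPM in WT day 3, 325 in Ccr2-/- day 3 and 335 in Ccr2-/- day 5, and the 278 to 309 CPM of cluster 13 lay within that range. Cluster 15, led by Rgs5, Esam and Myh11 and so holding vessel-wall genes, had 237 to 278 CPM, and its 249 CPM in WT day 3 was above that of neutrophil-like cells. Fibroblast-like cells had 191 CPM in WT day 3, 139 in WT day 5, 231 in Ccr2-/- day 3 and 225 in Ccr2-/- day 5 and held 32.5% to 67.2% of all Tnfrsf1a reads of a pool. Mo-Mac-like cells had 106 to 136 CPM, DC-like cells 80.9 to 125 and keratinocyte-like cells 95.05 to 119, with overlapping ranges. T cell-like cells, with 15.97 to 31.02 CPM, and mast cell-like cells, with 12.97 to 17.5 CPM, had the lowest medians, and their ranges overlapped each other. At 5000 reads per cell, 33.5 to 58.3% of fibroblast-like, 42.9 to 51.4% of cluster 15 and 3.797 to 6.56% of T cell-like cells had a read of it (74.1 to 93.6%, 66.7 to 74.03% and 8.75 to 12.7% without thinning).

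Tnfrsf1b, the receptor that lacks a death domain, was highest in cluster 13 and in neutrophil-like cells, and its level varied among the other leukocytes. Cluster 13 had 628 CPM in Ccr2-/- day 3 and 734 in Ccr2-/- day 5, above the 342 to 374 CPM of neutrophil-like cells in 3 pools. NK- or ILC-like cells (80.5 to 147 CPM), cluster 4 (71.7 to 102), T cell-like cells (73.2 to 145) and Mo-Mac-like cells (53 to 147) formed a middle group whose ranges overlapped. Mast cell-like cells had 27.7 to 44.4 CPM, basophil-like cells 9.19 to 52.6 and DC-like cells 15.1 to 29.9. Fibroblast-like cells had 15.8 CPM in WT day 3, 15.1 in WT day 5, 19.9 in Ccr2-/- day 3 and 18.02 in Ccr2-/- day 5, a range that overlapped those of basophil-like and DC-like cells. Cluster 15, whose best marker list was that of blood endothelial cells, had 29.5 to 45.6 CPM. Lymphatic endothelial-like, perichondrial-like and keratinocyte-like cells had at most 10.1 CPM, and in lymphatic endothelial-like cells of WT day 5 none of 831157 reads fell on it, where 3 reads would be 3.61 CPM. At 5000 reads per cell, 48.1 to 51.4% of cluster 13 and 32 to 33.3% of neutrophil-like cells had a read, against 0 to 3.797% of perichondrial-like cells (51.6 to 53.4%, 31.2 to 36.03% and 6.56 to 15.2% without thinning).

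Nfkbia, which encodes an inhibitor that NF-kB itself induces, was highest in cluster 13, neutrophil-like and basophil-like cells. Cluster 13 had 7105 CPM in Ccr2-/- day 3 and 7456 in Ccr2-/- day 5. Neutrophil-like cells had 6503 CPM in WT day 3, 6189.6 in Ccr2-/- day 3 and 6154 in Ccr2-/- day 5. Basophil-like cells had 6238 CPM in WT day 3, 4197 in Ccr2-/- day 3 and 5784 in Ccr2-/- day 5. Cluster 4 had 3328 to 3696 CPM and T cell-like cells 2100.2 to 2451 CPM, each below the group before it over pools. Mo-Mac-like cells had 1855 CPM in WT day 3, 1854 in WT day 5, 1188 in Ccr2-/- day 3 and 1173 in Ccr2-/- day 5, so that both WT pools lay above both Ccr2-/- pools. Fibroblast-like cells had 1256 CPM in WT day 3, 1558 in WT day 5, 1150.2 in Ccr2-/- day 3 and 1025 in Ccr2-/- day 5. Over all fibroblast-like cells the lowest WT value was above the highest Ccr2-/- value, though not within cluster 1 at day 3. Mast cell-like cells had the lowest level, 282 CPM in Ccr2-/- day 3 and 346 in Ccr2-/- day 5. At 5000 reads per cell, 92 to 100% of neutrophil-like and 48.4 to 61.8% of mast cell-like cells had a read (93.4 to 100% and 81.2 to 87.7% without thinning), and no group lacked the gene to serve as background.

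Tnfaip3 (A20) had the highest median in cluster 4, with 2963 CPM in WT day 3, 2659 in Ccr2-/- day 3 and 1681 in Ccr2-/- day 5, a range that held that of cluster 13 (2261 to 2518 CPM). It led in 2 of its 3 pools, and in Ccr2-/- day 5 it was below cluster 13 and below basophil-like, neutrophil-like and T cell-like cells. Neutrophil-like cells had 1813 to 2012 CPM, basophil-like cells 1649.7 to 2045 and T cell-like cells 1403 to 1887, with overlapping ranges. Mo-Mac-like cells had 683 CPM in WT day 3, 849 in WT day 5, 507 in Ccr2-/- day 3 and 515 in Ccr2-/- day 5. Fibroblast-like cells had 243 to 291 CPM and perichondrial-like cells 89.5 to 137 CPM. T cell-like and NK- or ILC-like cells had the highest shares of cells with a Tnfaip3 read, 78.8 to 86.9% and 73.3 to 88.5% of cells at 5000 reads (90.9 to 95.2% and 84.9 to 92.3% without thinning). Cluster 4 and basophil-like cells had shares that overlapped these, but 170 of the 274 cells of cluster 4 were too shallow for thinning and were left out. Lymphatic endothelial-like cells were lowest with 5.56 to 28.6% (35 to 47.6% without thinning), a range that overlapped that of perichondrial-like cells.

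Nfkbiz, which encodes the nuclear protein IkB zeta, a cofactor for a second wave of NF-kB targets, had another order. Neutrophil-like cells had 3171 CPM in WT day 3, 1569 in Ccr2-/- day 3 and 2158 in Ccr2-/- day 5 and basophil-like cells 1993 CPM in WT day 3, 2015 in Ccr2-/- day 3 and 3266 in Ccr2-/- day 5, with overlapping ranges. Cluster 13 had 1345 to 1505 CPM, below both, so that it was not the group with the most Nfkbiz although it had the most Tnf and Nfkbia. Mast cell-like cells, low in Nfkbia and Tnfaip3, came next with 455 CPM in Ccr2-/- day 3 and 602 in Ccr2-/- day 5, a range that overlapped that of T cell-like cells. Mo-Mac-like cells had 311.8 CPM in WT day 3, 436 in WT day 5, 157 in Ccr2-/- day 3 and 184 in Ccr2-/- day 5, and fibroblast-like cells had 191 CPM in WT day 3, 263 in WT day 5, 130.4 in Ccr2-/- day 3 and 163 in Ccr2-/- day 5. In both of these groups the 2 WT pools were above the 2 Ccr2-/- pools. At 5000 reads per cell, 88.9 to 93.3% of basophil-like and 22.2 to 30% of keratinocyte-like cells had a read (93.7 to 96.8% and 57.1 to 80% without thinning).

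**Figure D3:**
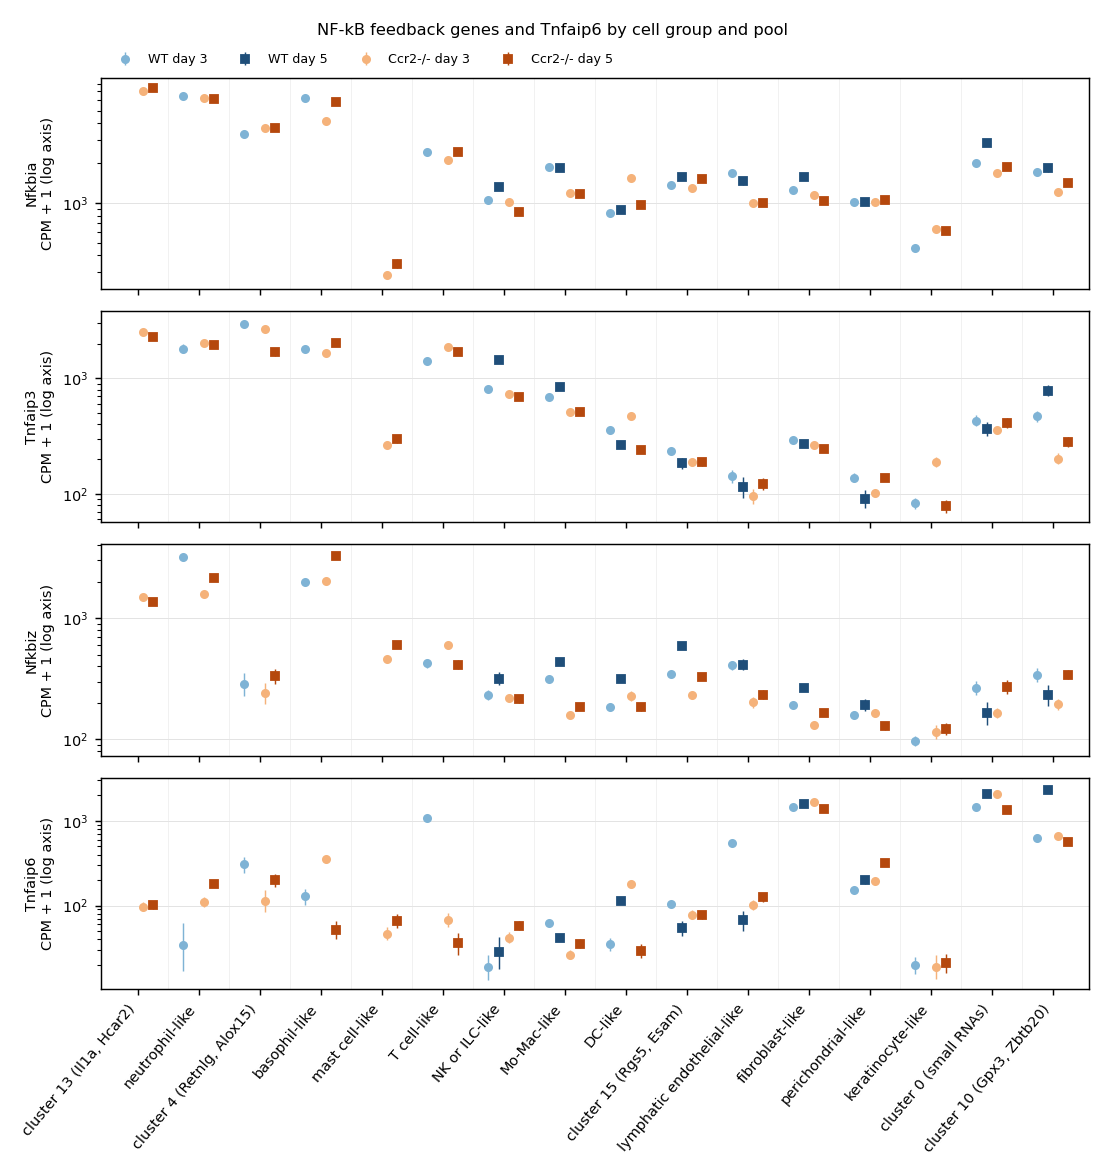
CPM + 1 of Nfkbia, Tnfaip3, Nfkbiz and Tnfaip6 on log axes for 16 cell groups, 1 point per pool with its Poisson 95% interval, for groups of at least 20 cells. Nfkbia and Nfkbiz are high in neutrophil-like and basophil-like cells, and Tnfaip6 lies between 1366 and 1684 CPM in fibroblast-like cells.

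Tnfaip6 encodes TSG-6, a secreted protein that binds hyaluronan in the matrix, and it followed the fibroblasts. Fibroblast-like cells had 1473 CPM in WT day 3, 1558 in WT day 5, 1684 in Ccr2-/- day 3 and 1366 in Ccr2-/- day 5, and 69.9 to 82.6% of all Tnfaip6 reads of a pool were in them. Cluster 0, led by small RNA genes such as Gm23935, had 1341 to 2068 CPM, and cluster 10, a shallow cluster led by Gpx3 and Zbtb20, had 561 to 2325 CPM. Both had much Col1a1, a collagen gene of fibroblasts. Perichondrial-like cells had 154 to 318 CPM and keratinocyte-like cells 18.1 to 19.9 CPM. T cell-like cells of WT day 3 had 1066 CPM, but a single cell held 49.7% of those reads, and Col1a1 was at 2257 CPM there against 229 and 239 CPM in the Ccr2-/- pools. At 5000 reads, 81.5 to 94.9% of fibroblast-like cells and 5 to 11.1% of keratinocyte-like cells had a read (93.03 to 98.9% and 47.6 to 67.9% without thinning).

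Col1a1 had a read in 92.3% of all barcodes. Tnfaip6 was set against Col1a1, on the assumption that RNA leaking from 1 cell type into the wells of others keeps its genes in 1 ratio. The deposited values had a background correction, which can change such a ratio. The pools were mixed, so leaked RNA need not come from the same pool. The ratio is thus a rough guide. In fibroblast-like cells there were 90.1 to 163 Tnfaip6 reads per 1000 reads of Col1a1 in the 4 pools. In Mo-Mac-like cells there were 168, 154, 70.8 and 211, in the same order of pools as above. Over all 51 sums of the other groups the ratio ran from 24.8 to 718, with a median of 161. For Nfkbia it was 90.2 to 111 in fibroblast-like cells and had a median of 3683 elsewhere. The Tnfaip6 level of Mo-Mac-like cells, 25.5 to 61.5 CPM, cannot be told apart from leaked RNA of fibroblasts by this ratio. The highest ratios were 718 in DC-like cells of Ccr2-/- day 3, where a single cell held 40.4% of the reads, and 472 in T cell-like cells of WT day 3. In perichondrial-like cells, which make collagen themselves, the ratio was 24.8 to 62.97.

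**Figure D4:**
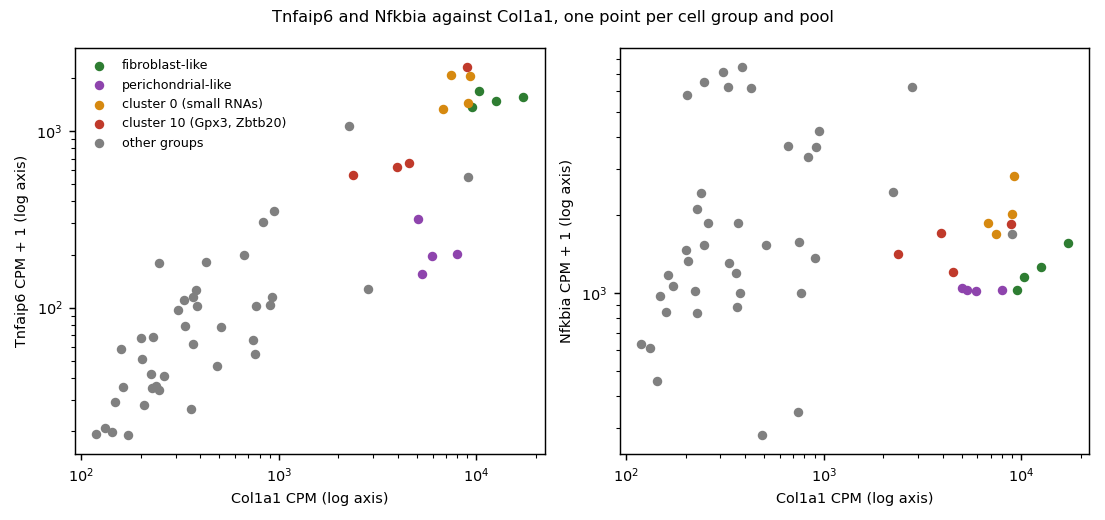
CPM + 1 of Tnfaip6 (left) and Nfkbia (right) against CPM of Col1a1 on log axes, 1 point per cell group and pool. Tnfaip6 is mostly higher where Col1a1 is higher, with the perichondrial-like points below the rest at their Col1a1 level and the fibroblast-like points at 1366 to 1684 CPM, and Nfkbia is highest where Col1a1 is low.

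Within Mo-Mac-like cells the members were read in ranges cut from subset marker scores, which are ranges and not types. A range of monocyte-derived dendritic cells (H2-Ab1, Ciita) was cut too, and its levels are not given here. In WT, Nfkbia had 1738 CPM at day 3 in 150 cells of the monocyte range (Ly6c2, Plac8), 2561 in 82 cells of the range of early classical monocyte-derived macrophages (Pdcd1lg2, Arg1), 2056 in 32 cells of the late range (Gpnmb, Trem2) and 1229 in 45 cells of the resident range (Lyve1, Folr2). At day 5 the same ranges had 2331, 1845, 2304 and 1567 CPM, so the order was not the same on both days. Of these 4 ranges the resident one was lowest on both days. Tnf in WT had 47.9, 54.4, 62.8 and 45.3 CPM in these ranges at day 3 and 18.2, 73.7, 80.4 and 36.4 at day 5. The late range was the highest of these 4 on both days, but at both the early range lay within its counting interval, 52.2 to 74.9 and 72.7 to 88.8 CPM. Tnfrsf1b in the early range had 54.01 CPM at day 3 and 139.8 at day 5 in WT, and in the monocyte range 121 and 311.1, the last in 20 cells. Of the cells in these 4 ranges, 56, 78, 67 and 72 over all pools lay within 0.25 of another range's score.

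Fibroblast-like cells were mostly in cluster 1, led by Opcml and Scara5, in WT, and in cluster 7, led by Cxcl5 and Saa3, in Ccr2-/-. Tnfaip6 had 1246, 1653, 1753 and 1498 CPM in cluster 1, the WT pools first and day 3 before day 5. It had 1709.7, 1469.7, 1671 and 1346 CPM in cluster 7, so the clusters overlapped. Tnfrsf1a had 145, 116, 218 and 197 CPM in cluster 1 and 229.7, 182, 238 and 231 CPM in cluster 7. It was higher in cluster 7 in each of the 4 pools. Nfkbia had 1269.9, 1594, 1273 and 1256 CPM in cluster 1 and 1224, 1477, 1100.2 and 969.6 CPM in cluster 7. At day 3 the WT and Ccr2-/- values of cluster 1 differed by less than their counting intervals, so the order of genotypes over all fibroblast-like cells was not seen in that cluster at day 3.

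The genotypes were compared within each day, and a gene was called where Ccr2-/- and WT differed at least 2-fold in the same direction on both days, among genes with a mean of at least 10 CPM. A call is a size and not a test. Over all cells 0 of the 7 members were called, beside 4.52% of all genes. In Mo-Mac-like cells 1 of 7 was called, beside 4.11% of all genes. That gene was Tnfrsf1b, with 108 CPM in WT day 3, 147 in WT day 5, 53.1 in Ccr2-/- day 3 and 53 in Ccr2-/- day 5. Its Poisson intervals were 103 to 112 and 142 to 152 CPM in WT and 48.6 to 57.9 and 47.6 to 58.8 in Ccr2-/-. Both WT pools lay above both Ccr2-/- pools, with log2 ratios of -1.005 at day 3 and -1.45 at day 5. Nfkbiz was just outside the limit, with log2 ratios of -0.99 and -1.24. The call of Tnfrsf1b ended under 5 of the alternatives tried, among them the stricter hashtag ratio, where day 3 gave -0.98, and the mean of single cells, where it gave -0.81, and in all of them both days stayed below 0.

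In Mo-Mac-like cells all 7 members had a log2 ratio below 0 on both days, as did 32.7% of the 8814 genes compared. The 7 include Tnfaip6, whose level in these cells could not be told apart from leaked RNA, and Tnf, whose ratios were close to 0. The median log2 ratio of the members was -0.64 at day 3 and -0.66 at day 5, and that of all genes was 0.01 and 0.02. Nfkbia had log2 ratios of -0.64 and -0.66, Tnfaip3 of -0.43 and -0.72, and Tnf of -0.12 and -0.02. The 10 genes that tissue digestion is known to induce, such as Fos and Jun, were mostly lower too: of the 9 compared, 7 were lower on both days, with medians of -0.32 and -0.65, and their part in the result was not tested. The clusters behind the name differed as well, since cluster 6 (Arg1, Retnla) held most of the WT cells but 45 of 112 and 40 of 75 Ccr2-/- cells at days 3 and 5, and cluster 20 (Cd209b, C1qa) held 64 and 34 of the latter. Within cluster 6, Tnfrsf1b had 99.6, 152, 52.4 and 27.5 CPM in the 4 pools, and within cluster 20 it had 94.9, 103, 44.3 and 77.6. Nfkbiz had 296, 410.0, 117 and 189 CPM in cluster 6 and 357, 605, 182 and 171 in cluster 20. Both genes were lower in Ccr2-/- on both days in both clusters. Tnfrsf1b met the 2-fold rule within neither cluster, since it was less than 2-fold apart in cluster 6 at day 3 and in cluster 20 at day 5. Cluster 19 (Ifitm6, Ly6c2), also named Mo-Mac, held 81, 6, 6 and 4 cells of the 4 pools before the check of each cell's own markers. Its part in the result was not tested. Nfkbia was at 1961, 1885, 1851 and 1625 CPM in cluster 6 and 1273, 1616, 803 and 727 in cluster 20, so its difference was larger in cluster 20 than in cluster 6.

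In DC-like cells 1 of 7 members was called, beside 5.13% of all genes, and it was Tnf, with ratios of 6.002 at day 3 and 4.64 at day 5. A single cell held 88.1% of the Tnf reads of the 35 DC-like cells of Ccr2-/- day 3, and the level without it was 7.33 CPM. The share of DC-like cells with a Tnf read at 5000 reads was 7.04%, 3.704%, 2.86% and 9.09% in the 4 pools (16.9%, 16.4%, 17.1% and 20% without thinning), so at day 3 the higher level came with that 1 cell. At day 5 the highest cell held 46.4% of the reads, and the level without it was 33.7 CPM. In NK- or ILC-like cells 1 of 7 was called, beside 6.01%, and it was Tnfaip6, with 17.9 CPM in WT day 3, 27.1 in WT day 5, 40.8 in Ccr2-/- day 3 and 57.2 in Ccr2-/- day 5. Per 1000 reads of Col1a1 there were 104, 131, 182 and 359 of it, and 25.7% of the Ccr2-/- day 5 reads were in a single cell.

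Fibroblast-like cells had 0 of 6 members called, beside 1.47% of all genes, since Tnf was below 10 CPM there. Their log2 ratios were 0.28 and 0.69 for Tnfrsf1a, -0.55 and -0.68 for Nfkbiz and 0.19 and -0.19 for Tnfaip6 at days 3 and 5. The digestion-induced genes were lower in Ccr2-/- on both days in 10 of 10, with medians of -0.66 and -0.99, and their part in the Nfkbiz values was not tested. Perichondrial-like cells had 0 of 5 members called, beside 4.29%, and lymphatic endothelial-like cells had 0 of 5, beside 9.34%. Among the unnamed clusters, cluster 0 had 0 of 7 called, beside 12.4%. Cluster 10 had Tnfaip3 lower, beside 15.3%, with 467 CPM in WT day 3, 780.1 in WT day 5, 201 in Ccr2-/- day 3 and 278 in Ccr2-/- day 5. The highest cell accounted for 41.9% of these reads in WT day 3 and for 74.9% in WT day 5. Without its highest cell a pool had 284, 371, 173 and 239 CPM, less than 2-fold apart on either day. Cluster 15 had Tnf higher, beside 4.31%, with 6.15 CPM in WT day 3, 24.7 in WT day 5, 39.97 in Ccr2-/- day 3 and 56.2 in Ccr2-/- day 5. In cluster 15 the neutrophil gene S100a8 was higher too, with 52.6 and 8.41 CPM in WT and 529 and 393 in Ccr2-/-, and its part in the Tnf result was not tested.

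**Figure D5:**
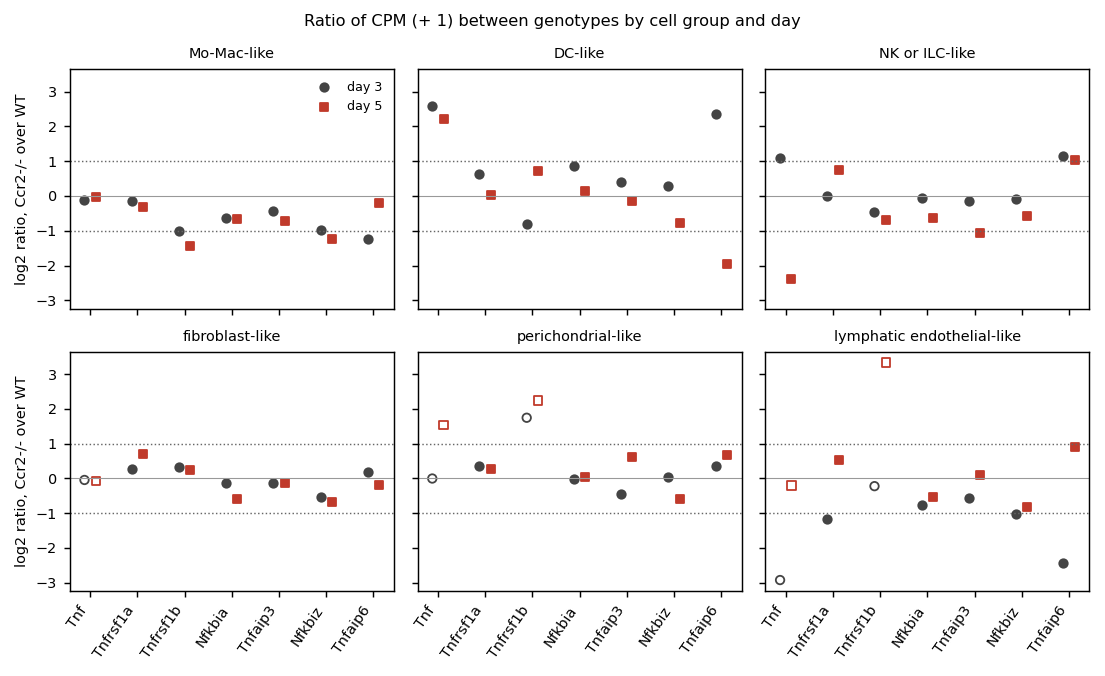
Log2 ratio of CPM + 1, Ccr2-/- over WT, for the 7 members in 6 named cell groups, with circles for day 3 and squares for day 5, open where the mean was below 10 CPM. Dotted lines mark 2-fold. In Mo-Mac-like cells all points lie at or below 0, with Tnfrsf1b at -1.005 and -1.45, and in fibroblast-like cells no member passes 2-fold.

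Days were compared within each genotype by the same rule, and 0 members were called in any of the 7 groupings. Over all cells 0.0809% of genes were called between days. The share was 0.93% in Mo-Mac-like, 2.69% in DC-like, 3.43% in NK- or ILC-like and 0.178% in fibroblast-like cells. It was 1.85% in perichondrial-like and 7.75% in lymphatic endothelial-like cells. The highest ratios of day 5 over day 3 in Mo-Mac-like cells of WT were those of Nfkbiz, 1.398 in WT and 1.17 in Ccr2-/-, and Tnfrsf1b, 1.36 in WT and 0.998 in Ccr2-/-. Tnfaip6 had 0.659 in WT and 1.34 in Ccr2-/-. Over all cells the highest was that of Tnf in Ccr2-/-, 1.83, against 1.103 in WT. From day 3 to day 5 of Ccr2-/-, cluster 13 went from 11.7% to 17.3% of the cells. Neutrophil-like cells went from 6.22% to 14.9%. The part of this mix in the ratio was not tested.

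The other genes of the pathway were followed as lists of 44 genes: ligands and sheddase, receptor complex and kinases, NF-kB subunits, other IkB proteins, other feedback genes and other targets. In Mo-Mac-like cells 41 were compared, and 0 were called higher and 2 lower in Ccr2-/-, a share near the 4.11% of all genes. These were Rel, the NF-kB subunit c-Rel, with 113, 128, 30.2 and 56.8 CPM in the 4 pools in the order above, and Birc3, a ubiquitin ligase of the receptor complex, with 131, 214, 60.9 and 89.5 CPM. The other subunits were not called in these cells, and Rela had 83.5, 89.8, 53.6 and 68.6 CPM. In DC-like cells 39 were compared and 1 was called lower, the ligand gene Ltb, with 10.4, 26.98, 0 and 9.96 CPM, beside 5.13% of all genes. In fibroblast-like cells 34 and in NK- or ILC-like cells 37 were compared, and 0 were called between genotypes, beside 1.47% and 6.01% of all genes. Perichondrial-like cells had 2 of 34 called lower, near the 4.29% of all genes, Traf2 (9.15, 24.9, 3.85 and 7.27 CPM) and Nfkbid (13.7, 23.5, 1.76 and 1.48 CPM). Lymphatic endothelial-like cells had Nfkbie higher (17.3, 9.63, 40.6 and 25.4 CPM) and Zfp36, which speeds the decay of Tnf mRNA, lower (3316, 3028, 1338 and 1333 CPM), so that 2 of 35 were called, a share below the 9.34% of all genes. Over all cells 40 were compared, with Tnfaip2 (106, 136, 230.4 and 278 CPM) and Sod2 (221, 141, 471 and 388 CPM) called higher and Rel (58.8, 82.2, 19.4 and 31.2 CPM) lower, beside 4.52% of all genes. These counts are near or below those of all genes except over all cells, where 3 of 40 were called, and none is read as particular to the pathway. Mo-Mac-like cells were 25.5%, 37.6%, 5.12% and 3.19% of the cells of the 4 pools, and the part of this mix in the calls over all cells was not tested.

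Between days 0 of these genes were called in Mo-Mac-like cells, fibroblast-like cells and over all cells. DC-like cells had Ltb higher at day 5 and Birc2, a ubiquitin ligase, lower (20.8, 4.26, 22.96 and 9.17 CPM), 2 of 39 beside 2.69% of all genes. NK- or ILC-like cells had 2 of 37 higher at day 5, beside 3.43%, the adaptor gene Traf2 (15.8, 43.9, 8.49 and 39.4 CPM) and Ikbkg, a subunit of the IkB kinase (15.2, 107, 7.34 and 23.9 CPM). Perichondrial-like cells had 1 of 34 lower, Ikbkg (16.9, 2.02, 21.2 and 4.57 CPM), beside 1.85%, and lymphatic endothelial-like cells had 1 of 35 lower, Traf2 (34.6, 1.203, 21.6 and 4.98 CPM), beside 7.75%.

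Of the genes followed as signs of digestion, Hspa1b was called lower in fibroblast-like cells of Ccr2-/- (31.1, 38.3, 13.97 and 15.8 CPM) and Egr1 in lymphatic endothelial-like cells (3165, 4032, 1452 and 1196 CPM). Of those followed as signs of leaked RNA, S100a9 was called higher in Ccr2-/- in NK- or ILC-like (6.52, 6.46, 15.8 and 187 CPM), fibroblast-like (11.9, 20.1, 38.9 and 43.6 CPM) and lymphatic endothelial-like cells (8.65, 4.81, 156 and 19.03 CPM), and S100a8 in perichondrial-like cells (5.92, 13.5, 12.98 and 44.4 CPM). Over all cells S100a8 and S100a9 were called higher and Lyz2, a gene of macrophages and neutrophils, lower. The part of leaked neutrophil RNA in the low levels of these groups was not tested.

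The sheddase gene Adam17 was highest in cluster 13 and neutrophil-like cells, the groups that also had most Tnf: 273 to 488 CPM in neutrophil-like cells and 297 to 300.3 in cluster 13, against 170.4, 163, 107 and 148 CPM in Mo-Mac-like cells. The chemokine gene Cxcl2, an NF-kB target, had 35231 and 38782 CPM in cluster 13 of the Ccr2-/- pools, 22518 to 38199 in neutrophil-like cells, 7309, 10069 and 6069.5 in basophil-like cells of WT day 3 and the Ccr2-/- pools, and 196, 223, 298 and 459 CPM in fibroblast-like cells.

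Over the 55 sums of a cell group and pool with at least 20 cells, log2(CPM + 1) of the members was correlated as a description, since sums of a pool share their library and sums of a group share their cell type. Tnf went with Tnfaip3 (Pearson r of 0.75), Nfkbiz (0.74), Tnfrsf1b (0.69) and Nfkbia (0.61), and not with Tnfrsf1a (-0.12) or Tnfaip6 (-0.27). The 2 receptor genes had an r of 0.01 with each other. Tnfaip3 and Nfkbia had 0.75. Among 10732 genes with at least 50 CPM in a sum, those most like Tnf were Srgn (0.85), Lilrb4a (0.84), Gm49339 (0.83), with r in parentheses. Those most like Tnfrsf1a were Marcks (0.77), App (0.72), Cdc42ep4 (0.71), and those most like Tnfrsf1b were Pik3ap1 (0.82), Mxd1 (0.80), Rhog (0.79). For Nfkbia they were Pnrc1 (0.89), Junb (0.83), Btg2 (0.83), for Tnfaip3 Pim1 (0.92), Kdm6b (0.86), Glipr1 (0.85) and for Nfkbiz Ddx5 (0.82), Nlrp3 (0.81), Tax1bp1 (0.80). For Tnfaip6 they were Col3a1 (0.91), Cpxm1 (0.91), Postn (0.90), of which Col3a1 is also a marker of the fibroblast-like cells.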

How the data were processed

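Ear skin cells of 4 hashtag pools were profiled by TAS-Seq on BD Rhapsody as 1 cDNA library and 1 hashtag library. The deposited values are read counts per gene and per hashtag and cell barcode, which the authors made with Cutadapt and Bowtie2 on GRCm38.p6, with a background correction. Barcodes went to the pool whose hashtag, scaled by its total, was at least 3 times the next, with at least 10 hashtag reads, at most 20% mitochondrial reads and at least 200 genes. Cells were clustered with scanpy 1.11.5 (2000 variable genes without the members, 30 components, 20 neighbours, Leiden resolution 1) and named from marker lists. Scrublet marked 0.909% of barcodes and was used only as an alternative. Levels are CPM of summed reads. The 2-fold rule used a pseudocount of 1 CPM. The 7 genes, the lists and the rules were chosen with earlier results of these data known. Genes described by name were the members, list genes past the 2-fold rule between genotypes in a named type or over all cells, and the 3 genes most like each member. Adam17, Cxcl2, the Mo-Mac-like Rela and the genes called between days were named after their values were seen. Hashtag ratio, gate, resolution, averaging, deep cells, highest cell, doublets, pseudocount, filter and thinning were varied.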

Additional observations from a re-analysis of the deposited data

Results flagged for a closer look

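In 4 cases a member differed at least 2-fold between genotypes in opposite directions on the 2 days, and the difference between days was not tested since each pool is a single one. The cases were sought among members with a mean of at least 10 CPM, in every group with at least 20 cells in each pool. The share of all genes that did the same was not taken, so the count is not read as a result about the members. Tnfaip6 in DC-like cells was 5.11 times the WT level at day 3 and 0.256 times at day 5. The highest cell accounted for 78.9% of the Tnfaip6 reads in WT day 5 and 40.4% in Ccr2-/- day 3. Tnf in NK- or ILC-like cells was 2.11 times at day 3 and 0.189 times at day 5, and all of its reads in WT day 5 came from 1 cell. In cluster 0, Tnf was 0.253 times at day 3 and 5.50 times at day 5, with 80.6% and 86.4% of the Ccr2-/- reads in 1 cell each. Tnfrsf1b in cluster 0 was 5.75 times at day 3 and 0.495 times at day 5, at levels of 2.39 to 18.5 CPM. The WT day 3 level rests on 2 reads, all 8 reads of WT day 5 were in 1 cell, and 1 cell held 66.7% of those of Ccr2-/- day 5.

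Of the data that no comparison used, 9 further hashtag columns held 0.0276% of the hashtag reads. The 1840 barcodes left out held 1497 reads of Tnf, which is 18.6 CPM, against 27.1 to 66.7 CPM over all cells of the pools.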

How the results depend on the processing

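The count of 3 members called between genotypes in 7 groupings was 0 with a hashtag ratio of at least 10, where NK- or ILC-like cells were too few to compare, 5 when cells were named by their own marker score alone and 1 with a pseudocount of 10 CPM, and 2 to 4 under the other 7 alternatives. The count between days was 0 under all 10. The day 3 log2 ratio of Tnf in DC-like cells, 2.59, turned to -0.96 without cells over 100000 reads, a limit that leaves out the cell of 138331 reads with most Tnf, and to -0.15 with the stricter hashtag ratio. That of Tnfaip6 in NK- or ILC-like cells, 1.14, turned to -2.73 with the own marker score alone, and the cause of the last 2 was not tested. Tnfrsf1b in Mo-Mac-like cells lay between -0.81 and -1.08 at day 3 and between -1.20 and -1.83 at day 5 under the alternatives that kept all its clusters. Of 266 levels in named types, 165 were at or over 100 CPM, and 147 to 180 under the alternatives. The leading group of each member led in 12 pools, and in 12 to 17 under the alternatives. At 5000 reads per cell 111 of 385 shares were at or over 50%, 148 at 10000 reads and 206 without thinning. At Leiden resolution 2 cluster 13 was matched to the cluster with most of its cells, 562 of 684, where Tnf had 1023 and 1545 CPM in the Ccr2-/- pools. No paired analysis was possible because each group is 1 pool without a replicate.

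Depth limits the low levels. A single cell held at least 50% of the reads in 49 of 385 levels, and these levels rest on that cell. WT pools held 18 and 4 cells of cluster 13 and 32 and 1 neutrophil-like cells, so neither entered the 2-fold comparison of genotypes.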
